A study of Homo sapiens with 132 samples.

Results

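The report covers 10 genes of the epithelial to mesenchymal transition in 4 gastric cancer cell lines. They were chosen by name, as the identifiers of the count files that map to CDH1, EPCAM, ESRP1, ESRP2, CDH2, VIM, ZEB1, ZEB2, SNAI1 and SNAI2, and all 10 were found among 65217 gene identifiers. The lines are MKN1, MKN7, Hs746T and NCI-N87 (labelled N87), each derived from a metastasis of a gastric carcinoma. MKN1 and Hs746T cells were left untreated or received EGF (5 ng/ml), cetuximab (1 µg/ml), EGF + cetuximab, trastuzumab (5 µg/ml), afatinib (0.5 µM) or trastuzumab + afatinib. In MKN7 and NCI-N87 there were no EGF or cetuximab groups, and treatment lasted 4 h or 24 h in all lines. The paper names DMSO as the solvent control of afatinib. No library here is labelled as DMSO, so a change with afatinib cannot be told apart from one with its solvent. Polyadenylated RNA was sequenced in 44 groups of 3 replicates, 42 libraries each from MKN1 and Hs746T and 24 each from MKN7 and NCI-N87. EGF is a ligand of the EGF receptor, cetuximab an antibody against that receptor, trastuzumab an antibody against HER2, and afatinib an inhibitor of the kinases of the ERBB receptor family. Each line stands for itself only. Hs746T cells were grown in DMEM and the other lines in RPMI, so a difference between Hs746T and another line cannot be told apart from one of medium.

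In an epithelium, E-cadherin at the adherens junctions holds neighbouring cells together. During the transition, transcription factors of the SNAI and ZEB families bind E-box motifs in the promoter of CDH1 and repress it, the cells give up epithelial adhesion and splicing programmes, and vimentin and N-cadherin appear. Growth factor signalling through EGF receptors and TGF-beta is a known input in culture, and loss of E-cadherin is a known feature of diffuse gastric cancer.

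The genes of vimentin (VIM) and of the repressor ZEB1, which both rose with EGF in MKN1 cells, have a RefSeq promoter entry (GRCh38.p14), and the 250 bases before the first listed start of each are printed 5′ to 3′ on the plus strand. The windows are chr10:17227991-17228240 for VIM and chr10:31318167-31318416 for ZEB1. Capitals mark every match to an E-box (CAGGTG, or CACCTG on the other strand) or a GC box (GGGCGG, or CCGCCC on the other strand), and an AP-1 site (TGANTCA) was searched as well.
VIM: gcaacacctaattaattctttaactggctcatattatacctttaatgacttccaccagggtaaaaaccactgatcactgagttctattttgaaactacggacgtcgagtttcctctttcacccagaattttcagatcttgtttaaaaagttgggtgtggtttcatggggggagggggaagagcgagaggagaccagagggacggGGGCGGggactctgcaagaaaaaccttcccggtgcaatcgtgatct
ZEB1: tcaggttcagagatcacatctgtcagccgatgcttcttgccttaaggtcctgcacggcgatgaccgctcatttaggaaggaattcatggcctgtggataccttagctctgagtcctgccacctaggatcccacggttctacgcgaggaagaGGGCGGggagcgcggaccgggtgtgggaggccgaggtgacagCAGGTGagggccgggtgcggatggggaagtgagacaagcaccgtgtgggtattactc
The ZEB1 window holds 1 E-box at bases -57 to -52 and 1 GC box at bases -99 to -94 from the listed start, and the VIM window holds 1 GC box at bases -46 to -41. An AP-1 match was found in neither window, nor an E-box in the VIM window. Among 35116 promoter windows of 250 bases, 17.5% held an E-box, 6.57% an AP-1 site and 42.6% a GC box. The motifs do not overlap one another, and a match describes letters only. Of the 10 genes, CDH2, VIM, ZEB1 and ZEB2 matched the promoter table, and CDH1, EPCAM, SNAI1, SNAI2, ESRP1 and ESRP2 did not.

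On the epithelial side, CDH1 encodes E-cadherin (ENSG00000039068, chr16:68737225-68835548, plus strand), and EPCAM encodes an epithelial cell surface adhesion molecule (ENSG00000119888, chr2:47345158-47387601, plus strand). ESRP1 (ENSG00000104413, chr8:94641074-94707466, plus strand) and ESRP2 (ENSG00000103067, chr16:68229111-68238102, minus strand) encode RNA-binding proteins that keep epithelial splice forms. On the mesenchymal side, CDH2 encodes N-cadherin (ENSG00000170558, chr18:27950966-28177446, minus strand), and VIM encodes the intermediate filament protein vimentin (ENSG00000026025, chr10:17228259-17237593, plus strand). The repressors are ZEB1 (ENSG00000148516, chr10:31318495-31529814, plus strand), ZEB2 (ENSG00000169554, chr2:144364364-144524583, minus strand), SNAI1, which encodes Snail (ENSG00000124216, chr20:49982999-49988886, plus strand), and SNAI2, which encodes Slug (ENSG00000019549, chr8:48917604-48921740, minus strand). Positions are those of GENCODE 29 on GRCh38, and all 10 genes code for proteins.

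Total counts ran from 25832557 to 69434151 per library, with a median of 50725775.5, so that 3 counts correspond to 0.0432 to 0.116 CPM. Levels are given as CPM, the counts per 1000000 counts of the scaled library size. All 10 genes passed the filter on low counts in every fit. The genes of a marker list of gastric epithelial tumour cells were at 1 CPM or more for 7 of 12 genes in each line, with summed levels of 459 to 765 CPM in Hs746T and of 4920.4 to 28003 CPM in the other lines. Hs746T thus carried KRT8 and KRT18, at a lower level than the other lines. TFF1 and CEACAM5 had medians under 1 CPM in every line, and KRT20 in every line but NCI-N87 (median 200 CPM). The 6 fibroblast markers summed to 379 to 705 CPM in Hs746T and to 9.66 to 349 CPM in the other lines, the 5 leukocyte markers to 0.0764 to 9.18 CPM and the 2 haemoglobin genes to 0 to 2.24 CPM. The fibroblast sum was mostly COL1A1 in Hs746T (median 513 CPM), where PDGFRA, DCN and LUM had medians of 0.0397, 0.109 and 0.121 CPM. In MKN1 it was mostly LUM (median 82.7 CPM). Of the 3 endothelial markers, PECAM1 was high in Hs746T (median 158 CPM), where CDH5 and VWF had medians of 0.0557 and 0.332 CPM. The part of other cells in the levels below was not tested. In bulk RNA, fewer cells that express a gene and less RNA per cell cannot be told apart.

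The untreated lines fell into a pair rich in VIM, Hs746T and MKN1, and a pair rich in CDH1, MKN7 and NCI-N87. VIM had a median of 1517 (range 1382 to 1959) CPM over the 6 untreated libraries of Hs746T and of 415 (range 300.2 to 702) CPM in MKN1, against 3.45 (range 1.80 to 16.1) CPM in MKN7 and 3.76 (range 2.72 to 11.9) CPM in NCI-N87. CDH1 ran the other way, with 274 (range 215 to 355) CPM in NCI-N87, 243 (range 229.8 to 286) CPM in MKN7, 2.22 (range 1.01 to 3.11) CPM in MKN1 and 0.784 (range 0.568 to 1.06) CPM in Hs746T. The ranges of both genes in MKN1 and Hs746T lay apart from those in MKN7 and NCI-N87. MKN7 and NCI-N87 overlapped in CDH1 (log2 fold change -0.05, SE 0.13, adjusted p = 0.757, 95% interval -0.30 to 0.20) and in VIM (log2 fold change 0.02, SE 0.45, adjusted p = 0.977, 95% interval -0.86 to 0.90), and these neighbours in the order did not differ beyond their spread. VIM in both lines lay near the shared background described below, so its comparison cannot show whether the cells differ.

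**Figure D1:**
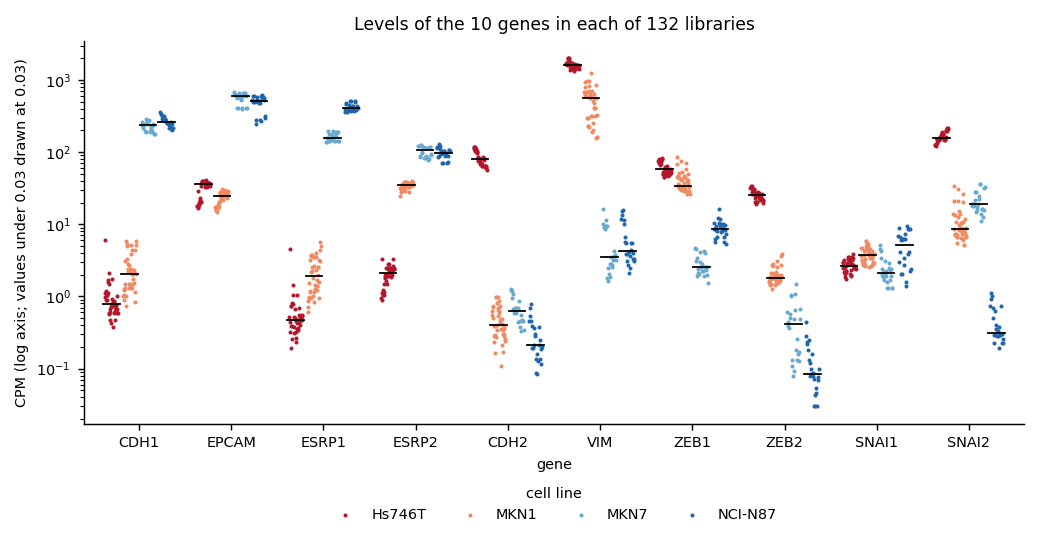
CPM of each gene (x axis) in every library on a log axis, coloured by cell line, with 1 point per library and the median of the line as a bar. VIM has medians of 1611 CPM in Hs746T and 569 CPM in MKN1 and stays at 16.1 CPM or less in MKN7 and NCI-N87, while CDH1 reaches 5.95 CPM at most in MKN1 and has medians of 235 and 265 CPM in MKN7 and NCI-N87.

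The other epithelial genes followed CDH1 in most lines. EPCAM reached 614 (range 544 to 679) CPM in MKN7, 524 (range 488 to 591) CPM in NCI-N87, 35.3 (range 18 to 38) CPM in Hs746T and 26 (range 17.1 to 27.7) CPM in MKN1. ESRP1 was highest in NCI-N87 with 389 (range 367 to 452) CPM, followed by MKN7 with 175 (range 139 to 196) CPM, MKN1 with 2.60 (range 0.871 to 3.24) CPM and Hs746T with 0.384 (range 0.267 to 0.516) CPM. ESRP2 stood apart from ESRP1 in MKN1. Its levels were 118 (range 113 to 127) CPM in MKN7, 100 (range 89.5 to 129.9) CPM in NCI-N87, 35.7 (range 32 to 39) CPM in MKN1 and 2.47 (range 0.958 to 3.31) CPM in Hs746T, so that MKN1 kept ESRP2 and hardly any ESRP1. Per kilobase of exon, the untreated medians in MKN1 were 6.42 CPM for ESRP2 and 0.533 CPM for ESRP1.

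The mesenchymal genes did not share 1 pattern. CDH2 had 81.8 (range 61.8 to 111) CPM in Hs746T and medians of 0.631, 0.350 and 0.176 CPM in MKN7, MKN1 and NCI-N87, so that MKN1 cells carried RNA of VIM but almost none of CDH2. ZEB1 was high in both VIM-positive lines, with 57.4 (range 50.05 to 75.3) CPM in Hs746T, 39.4 (range 29.6 to 45.3) CPM in MKN1, 10.1 (range 8.85 to 12.1) CPM in NCI-N87 and 3.47 (range 1.93 to 4.75) CPM in MKN7. ZEB2 was high in Hs746T alone, with 26.3 (range 22.8 to 32.2) CPM, and had medians of 1.74, 0.336 and 0.0827 CPM in MKN1, MKN7 and NCI-N87. Of the SNAI genes, SNAI2 ran from 150.2 (range 127 to 205) CPM in Hs746T to 0.338 (range 0.229 to 0.726) CPM in NCI-N87, with 16.4 (range 11.3 to 22.6) CPM in MKN7 and 9.55 (range 7.10 to 13.7) CPM in MKN1. SNAI1 differed least between the lines and was highest in an epithelial line, with 7.10 (range 6.17 to 9.44) CPM in NCI-N87, 3.66 (range 2.72 to 4.50) CPM in MKN1, 2.65 (range 1.87 to 3.47) CPM in Hs746T and 2.27 (range 1.95 to 4.59) CPM in MKN7. Per kilobase of exon, VIM led the list in Hs746T (294 CPM) and MKN1 (80.5 CPM), and EPCAM led it in MKN7 (244 CPM) and NCI-N87 (208 CPM).

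With edgeR's quasi-likelihood test and an adjusted p below 0.05 (Benjamini-Hochberg over all genes tested, the rule for every call), 53 of 60 comparisons of a gene between 2 untreated lines were called. These lines differed in most of their genes. Calls covered 79.9% of genes between Hs746T and MKN1, 78.2% between Hs746T and MKN7, 79.6% between Hs746T and NCI-N87, 75.8% between MKN1 and MKN7, 78.7% between MKN1 and NCI-N87 and 76.8% between MKN7 and NCI-N87. The 10 genes gave 10, 9, 10, 9, 9 and 6 calls in these pairs, so the sizes say more than the counts. CDH1 was lower in Hs746T than in NCI-N87 (log2 fold change -8.31, SE 0.19, adjusted p = 1.06e-20), ESRP1 was lower (log2 fold change -9.85, SE 0.18, adjusted p = 3.10e-22), and VIM was higher (log2 fold change 8.08, SE 0.55, adjusted p = 4.26e-12). Over all treatments, CDH1 and ESRP1 in Hs746T lay at 2.87 and 1.60 times a possible background shared between libraries, described below. VIM in NCI-N87 lay at 1.34 times it, so this background can limit the sizes of these differences. Between Hs746T and MKN1, CDH2 (log2 fold change 7.59, SE 0.33, adjusted p = 1.05e-15), SNAI2 (log2 fold change 4.01, SE 0.17, adjusted p = 9.64e-16) and ZEB2 (log2 fold change 3.91, SE 0.26, adjusted p = 3.08e-12) were higher in Hs746T, whereas ZEB1 differed by less (log2 fold change 0.67, SE 0.11, adjusted p = 1.00e-05). SNAI1 was lower in Hs746T than in NCI-N87 (log2 fold change -1.42, SE 0.17, adjusted p = 1.01e-07) and did not pass the test between Hs746T and MKN7 (log2 fold change 0.06, SE 0.18, adjusted p = 0.764, 95% interval -0.29 to 0.41). The call on EPCAM between Hs746T and MKN1 (log2 fold change 0.36, SE 0.16, adjusted p = 0.0415) was lost with DESeq2 (adjusted p = 0.0722) and without replicate 2 (adjusted p = 0.195) or 3 (adjusted p = 0.221). With the 24 h libraries alone, it was lost as well (adjusted p = 0.0746), and so was that on SNAI1 (0.0720). Without replicate 2, SNAI1 no longer differed between Hs746T and MKN1 (adjusted p = 0.141) or MKN1 and MKN7 (adjusted p = 0.390, and 0.0589 without replicate 3), nor ZEB2 between MKN7 and NCI-N87 (adjusted p = 0.1004). Of the 7 comparisons not called, CDH2 between MKN1 and MKN7 passed without replicate 2 (adjusted p = 0.0394), and CDH2 between MKN1 and NCI-N87 (0.00602), EPCAM between MKN7 and NCI-N87 (0.00787) and ESRP2 there (0.000451) passed without replicate 1. Both of CDH2 and that of EPCAM also passed without the filter and with the block.

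The lowest levels were close to a signal found for genes of the other lines, called the shared background here. Whether it came from carry-over between libraries or from low expression in the cells was not tested, and these cannot be told apart here. Genes at 100 CPM or more in 1 line and under 1 CPM in the other 3 still appeared in those, and the gene with the lowest share of each source line appeared at a median of 0.0485 to 0.178% of its level there. Other genes of this kind gave higher medians, up to 0.789% (ANPEP of MKN1 in NCI-N87). The lowest shares are used below, and the higher ones would raise the background. At those shares, the other lines would give VIM a level of 3.08 CPM in MKN7, where the median over all treatments (3.57 CPM) was 1.16 times that, and 3.19 CPM in NCI-N87, where it (4.27 CPM) was 1.34 times that. The same ratio, over all treatments of a line, was 1.20 for SNAI2 and 1.73 for CDH2 in NCI-N87, and 1.60 for ESRP1 in Hs746T. It was 2.09 for ZEB2 in NCI-N87, 2.87 for CDH1 in Hs746T, 3.38 for CDH1, 2.80 for CDH2 and 2.47 for ESRP1 in MKN1, and 197 for VIM in MKN1. Replicate 1 carried more VIM than the others in both lines, with 8.54 to 16.1 CPM against 1.62 to 4.31 CPM in MKN7 and 5.67 to 15.7 CPM against 2.12 to 5.54 CPM in NCI-N87. VIM in MKN7 and NCI-N87, SNAI2 and CDH2 in NCI-N87 and ESRP1 in Hs746T, at ratios of 1.16 to 1.73, therefore could not be told apart from this background. The genes at ratios of 2.09 to 3.38 are not cleared, since the higher shares would lower these ratios. In 1 library, replicate 1 of EGF + cetuximab at 4 h in Hs746T, 5 genes of MKN7 appeared at 2.12% of their MKN7 level, against 0.0604 and 0.0813% in the other 2 replicates, and CDH1 (6.14 CPM) and ESRP1 (4.50 CPM) were at their highest in Hs746T there.

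VIM-AS1, ZEB1-AS1 and ZEB2-AS1 lie opposite to 3 of the genes, and whether reads were counted by strand is not given in the sources used here, so reads of a gene and of its antisense partner may not have been told apart. VIM-AS1 had medians of 1.09 to 7.86 CPM and ZEB1-AS1 of 2.06 to 4.59 CPM over the libraries of a line, and ZEB2-AS1 was listed at 0 in every library. ZEB1 in untreated MKN7, at 3.47 CPM, was of the same order as ZEB1-AS1 there (median 2.32 CPM over 24 libraries).

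The EGF comparison in MKN1 asked how a line sensitive to cetuximab answers the ligand of the receptor. At 24 h, VIM, ZEB1 and SNAI2 rose and CDH1 and ESRP1 fell, which is 5 of the 10 genes where 35.8% of all genes were called. VIM was at 300.2, 315 and 318 CPM in the untreated libraries and at 984, 1263 and 846 CPM with EGF (replicates 1, 2 and 3 in this order, here and for each value by library), a rise of 3.31-fold (log2 fold change 1.73, SE 0.21, adjusted p = 1.24e-07). The groups did not overlap, and the lowest EGF library held more VIM than any untreated one at 24 h. Untreated VIM at 4 h was at 687, 702 and 512 CPM, so the fold at 24 h is against a control that was lower than at 4 h. ZEB1 went from 34.9, 29.6 and 37.4 CPM to 51.4, 47.4 and 50.1 CPM (log2 fold change 0.55, SE 0.10, adjusted p = 9.05e-05). SNAI2 went from 7.10, 8.36 and 8.39 CPM to 10.7, 13.9 and 12 CPM (log2 fold change 0.62, SE 0.19, adjusted p = 0.00968). Both repressors were higher in every EGF library than in any untreated one at 24 h, but SNAI2 missed the threshold without replicate 1 (adjusted p = 0.0997), without replicate 2 (adjusted p = 0.0616) and with library size as the only scaling (adjusted p = 0.0578). Untreated SNAI2 at 4 h was at 13.7, 12.5 and 10.7 CPM, close to its values with EGF at 24 h.

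CDH1 fell from 3.11, 2.17 and 2.34 CPM to 0.747, 1.43 and 0.850 CPM (log2 fold change -1.35, SE 0.35, adjusted p = 0.00261). ESRP1 fell from 3.24, 2.68 and 3.22 CPM to 1.20, 1.43 and 0.947 CPM (log2 fold change -1.36, SE 0.45, adjusted p = 0.0181). Neither gene overlapped between the groups. The EGF values of CDH1 reach down to the shared background. At the lowest shares it would give 0.608 to 0.974 CPM of CDH1 in these 3 libraries and 0.649 to 0.809 CPM in the untreated ones, and 0.515 to 1.31 CPM of ESRP1 with EGF. How far below the measured values the cells themselves had fallen was not detectable. Untreated libraries at 4 h held CDH1 at 1.01, 2.27 and 1.30 CPM and ESRP1 at 0.871, 2.52 and 1.38 CPM. The call on CDH1 was lost without replicate 1 (adjusted p = 0.0531) and that on ESRP1 without replicate 1 (adjusted p = 0.0928) or 3 (adjusted p = 0.123). ESRP2, the splicing factor that MKN1 does express, went from 35.6, 35.8 and 38.6 CPM to 32.8, 32.4 and 37.2 CPM (log2 fold change -0.10, SE 0.11, adjusted p = 0.475, 95% interval -0.31 to 0.10). EPCAM went from 18.7, 25.8 and 26.3 CPM to 17.6, 30.8 and 23.4 CPM (log2 fold change 0.02, SE 0.27, adjusted p = 0.964, 95% interval -0.51 to 0.55). Neither passed the test, except ESRP2 with library size alone (adjusted p = 0.0413). SNAI1, at 2.72, 4.15 and 3.41 CPM and 4.29, 5.33 and 4.21 CPM, passed with the replicate number as a block (log2 fold change 0.44, SE 0.13, adjusted p = 0.00718, against adjusted p = 0.158 without it) and without replicate 2 (adjusted p = 0.0238). With the block 51.1% of genes were called.

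**Figure D2:**
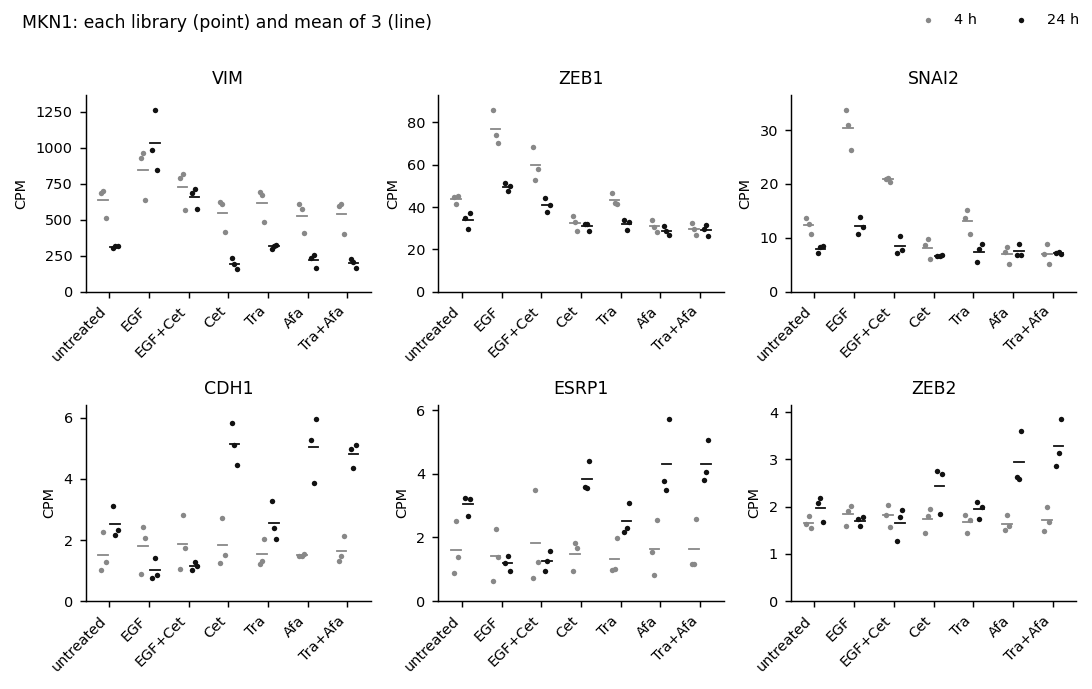
VIM, ZEB1, SNAI2, CDH1, ESRP1 and ZEB2 in MKN1 by treatment (x axis) and time (grey 4 h, black 24 h), in CPM, with 1 point per library and the mean of 3 as a line. VIM at 24 h lies between 846 and 1263 CPM with EGF and between 300.2 and 318 CPM in the untreated libraries, and SNAI2 at 4 h lies between 26.3 and 33.8 CPM with EGF.

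Of the 4 repressors, SNAI2 and ZEB1 had already risen at 4 h, when 6.82% of genes were called. SNAI2 went from 13.7, 12.5 and 10.7 CPM to 33.8, 30.9 and 26.3 CPM, a rise of 2.47-fold (log2 fold change 1.30, SE 0.19, adjusted p = 6.39e-06). ZEB1 went from 44.8, 41.3 and 45.3 CPM to 86, 74.2 and 70.4 CPM, or 1.76-fold (log2 fold change 0.81, SE 0.10, adjusted p = 8.88e-07). Each EGF library was above each untreated library for both genes, and both calls held without each replicate. VIM at 4 h went from 687, 702 and 512 CPM to 928, 962 and 637 CPM, with overlapping groups, and passed with the block (log2 fold change 0.40, SE 0.10, adjusted p = 0.00307, against adjusted p = 0.306 without it) and without replicate 3 (adjusted p = 0.0145). With the block 17% of genes were called. ESRP2 fell from 32, 39 and 34.8 CPM to 24.3, 29 and 27.9 CPM (log2 fold change -0.38, SE 0.11, adjusted p = 0.0206). This call was lost without replicate 1 (adjusted p = 0.0755), 2 (0.104) or 3 (0.174), and when only the 2 groups were fitted (0.0778). CDH1 at 4 h, at 1.01, 2.27 and 1.30 CPM and 0.903, 2.44 and 2.06 CPM, had an adjusted p of 0.863 (log2 fold change 0.23, 95% interval -0.45 to 0.91).

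Cetuximab alone was compared with the same untreated libraries, so its values and those of EGF share their controls. At 24 h VIM was at 231, 192 and 156 CPM and fell (log2 fold change -0.69, SE 0.21, adjusted p = 0.0283), where 10.8% of genes were called. CDH1 was at 5.82, 5.12 and 4.44 CPM and rose 2.01-fold (log2 fold change 1.01, SE 0.31, adjusted p = 0.0316). The cetuximab libraries lay below all untreated ones in VIM and above all untreated ones in CDH1. At the lowest shares, the shared background would give 0.513 to 0.625 CPM of CDH1 in them. At 4 h ZEB1 was at 36, 33 and 28.8 CPM and fell (log2 fold change -0.43, SE 0.10, adjusted p = 0.0249), where 1.43% of genes were called. SNAI2 at 4 h, at 8.67, 9.76 and 6.08 CPM, lay below each untreated library and passed with the block (log2 fold change -0.61, SE 0.12, adjusted p = 0.000931, against adjusted p = 0.126 without it), where 7.5% of genes were called. Each of the 3 calls without the block was lost when 1 replicate was left out. CDH1 missed the threshold without replicate 1 (adjusted p = 0.0515), 2 (0.0727) or 3 (0.281), and VIM without replicate 1 (0.0933) or 2 (0.147). ZEB1 missed it without replicate 1 (0.114), 2 (0.114) or 3 (0.592), without the filter (0.0548), with library size alone (0.0827) and with only the 2 groups fitted (0.134).

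Cetuximab added to EGF was compared with EGF alone, in libraries that the previous comparison did not use. SNAI2 at 4 h was at 33.8, 30.9 and 26.3 CPM with EGF and 21, 21.2 and 20.4 CPM with EGF + cetuximab, and ZEB1 was at 86, 74.2 and 70.4 CPM and 68.2, 53 and 58.2 CPM. VIM at 24 h was at 984, 1263 and 846 CPM and 684, 715 and 572 CPM. In each of these cases all 3 libraries with the antibody lay below those with EGF alone, and they stayed above the untreated values of the same time. SNAI2 at 24 h, at 7.24, 10.3 and 7.67 CPM, also lay below EGF alone (10.7, 13.9 and 12 CPM) but overlapped the untreated libraries (7.10, 8.36 and 8.39 CPM). The share of all genes that separate in this way is not given. None of the 10 genes was called by edgeR at either time, where 0.701% of genes were called at 4 h and 0.646% at 24 h, while 3 of the 10 had an unadjusted p below 0.05 at each time and DESeq2 called ZEB1 at 4 h (adjusted p = 0.0440). Without replicate 3, VIM passed at 24 h (adjusted p = 0.00411). With the block, 3 genes passed at 4 h, SNAI2 (log2 fold change -0.53, SE 0.11, adjusted p = 0.00175), ZEB1 (log2 fold change -0.36, SE 0.07, adjusted p = 0.00138) and ESRP2, which was higher (log2 fold change 0.24, SE 0.05, adjusted p = 0.000689), where 3.99% of genes were called. At 24 h VIM (log2 fold change -0.64, SE 0.10, adjusted p = 3.23e-05), SNAI2 (log2 fold change -0.54, SE 0.12, adjusted p = 0.00303) and ZEB1 (log2 fold change -0.27, SE 0.07, adjusted p = 0.0179) passed with it, where 7.22% of genes were called. CDH1 at 24 h did not pass with the antibody, at 1, 1.29 and 1.16 CPM against 0.747, 1.43 and 0.850 CPM with EGF (log2 fold change 0.20, SE 0.37, adjusted p = 0.927, 95% interval -0.51 to 0.92).

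Afatinib in MKN1 lowered SNAI2 and ZEB1 at 4 h and raised CDH1 and ZEB2, both at low levels, at 24 h. At 4 h, where 3.68% of genes were called, SNAI2 was at 7.39, 8.27 and 5.17 CPM against 13.7, 12.5 and 10.7 CPM untreated (log2 fold change -0.83, SE 0.19, adjusted p = 0.00745). ZEB1 was at 33.9, 30.5 and 28.3 CPM against 44.8, 41.3 and 45.3 CPM (log2 fold change -0.50, SE 0.10, adjusted p = 0.00257). The groups did not overlap in either gene. In separate libraries, afatinib added to trastuzumab gave SNAI2 7.02, 8.84 and 5.22 CPM against 13.6, 15.1 and 10.7 CPM with trastuzumab (log2 fold change -0.91, SE 0.19, adjusted p = 0.00309). ZEB1 was at 32.4, 29.8 and 26.7 CPM against 46.6, 41.8 and 41.6 CPM (log2 fold change -0.55, SE 0.10, adjusted p = 0.000930), where 3.08% of genes were called. SNAI2 was lost without replicate 1 in both comparisons (adjusted p = 0.207 and 0.155) and with only the 2 groups fitted (0.0778 and 0.0856), and against untreated also without replicate 3 (0.0534). ZEB1 was lost without replicate 3 in both (adjusted p = 0.193 and 0.0744).

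At 24 h, 25.6% of genes were called for afatinib against untreated and 27.9% for afatinib added to trastuzumab. CDH1 was at 5.28, 3.88 and 5.95 CPM against 3.11, 2.17 and 2.34 CPM (log2 fold change 0.98, SE 0.31, adjusted p = 0.0181). It was at 4.98, 4.37 and 5.10 CPM against 3.27, 2.38 and 2.04 CPM with trastuzumab (log2 fold change 0.91, SE 0.31, adjusted p = 0.0267). The afatinib libraries lay above the others in both pairs. At the lowest shares, the shared background would give 0.548 CPM of CDH1 or less in them. ZEB2 was at 2.63, 2.59 and 3.61 CPM against 2.08, 2.19 and 1.67 CPM (log2 fold change 0.57, SE 0.17, adjusted p = 0.0127). It was at 2.85, 3.14 and 3.85 CPM against 2.11, 1.75 and 2 CPM (log2 fold change 0.75, SE 0.17, adjusted p = 0.00111). An epithelial gene and a repressor of it thus rose together, at levels of a few CPM. All 4 calls were lost without replicate 3 (CDH1 adjusted p = 0.316 and 0.308, ZEB2 0.469 and 0.0522), and the first ZEB2 call with only the 2 groups fitted (0.0863).

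VIM at 24 h was at 234, 256 and 162 CPM with afatinib, below each untreated library, and at 226, 204 and 163 CPM with both agents, below each trastuzumab library (298, 317 and 327 CPM). It passed when afatinib was added to trastuzumab (log2 fold change -0.67, SE 0.21, adjusted p = 0.0146), but not without replicate 1 (adjusted p = 0.0620) or 2 (0.0944). Against untreated it passed with the block (log2 fold change -0.54, SE 0.10, adjusted p = 3.36e-05, against adjusted p = 0.0634 without it), as did ZEB1 (log2 fold change -0.24, SE 0.08, adjusted p = 0.0105, against adjusted p = 0.0894) and ESRP2 (log2 fold change -0.12, SE 0.04, adjusted p = 0.0349, against adjusted p = 0.455), where 42.2% of genes were called. ESRP1, at 3.76, 3.48 and 5.71 CPM against 3.24, 2.68 and 3.22 CPM, had an adjusted p of 0.413 (log2 fold change 0.50, 95% interval -0.31 to 1.31). SNAI2, lower at 4 h, was at 6.76, 8.91 and 6.72 CPM with afatinib and 7.10, 8.36 and 8.39 CPM untreated at 24 h (log2 fold change -0.09, SE 0.19, adjusted p = 0.782).

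**Figure D3:**
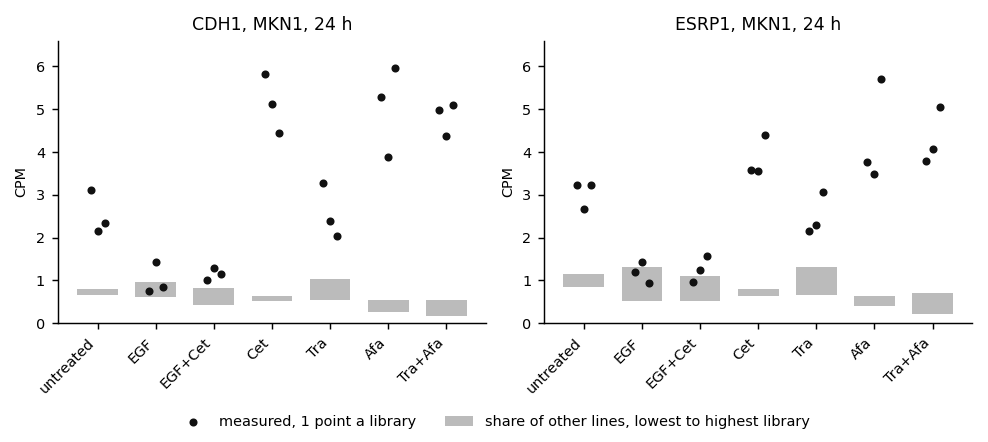
CDH1 and ESRP1 in MKN1 at 24 h by treatment, in CPM, with 1 black point per library. A grey bar gives the level that the lowest share of each other line would give, from the lowest to the highest library. With EGF the CDH1 points (0.747 to 1.43 CPM) run into the grey bar (0.608 to 0.974 CPM), and with afatinib (3.88 to 5.95 CPM) they lie above it.

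In MKN7, afatinib lowered all 4 epithelial genes at 24 h and raised SNAI2. EPCAM was at 594, 544 and 655 CPM untreated and 409, 399.7 and 410.1 CPM with afatinib (log2 fold change -0.56, SE 0.07, adjusted p = 1.43e-06). CDH1 went from 242, 272 and 244 CPM to 197, 192 and 178 CPM (log2 fold change -0.42, SE 0.12, adjusted p = 0.00725). ESRP1 went from 194, 196 and 191 CPM to 146, 141 and 143 CPM (log2 fold change -0.43, SE 0.08, adjusted p = 0.000123). ESRP2 went from 127, 115 and 119 CPM to 101, 87.2 and 91 CPM (log2 fold change -0.37, SE 0.07, adjusted p = 8.76e-05). No afatinib library reached an untreated one in any of the 4 genes. SNAI2 went the other way, from 17.8, 22.6 and 12.6 CPM to 28.3, 35.8 and 32.2 CPM, or 1.81-fold (log2 fold change 0.86, SE 0.19, adjusted p = 0.000732), again with no overlap. These are 5 of 10 genes where 51.6% of all genes were called, so the count is at the background. The share of all genes without overlap is not given, so the lack of overlap describes these libraries only. CDH1 missed the threshold with library size as the only scaling (adjusted p = 0.0508).

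The same 5 genes were called in the same directions when afatinib was added to trastuzumab in MKN7, where 44.4% of genes were called. EPCAM was at 557, 533 and 604 CPM with trastuzumab and 406, 403 and 411 CPM with both (log2 fold change -0.47, SE 0.07, adjusted p = 1.74e-05). SNAI2 was at 21.7, 24.3 and 15.9 CPM and 28.4, 36.5 and 33.1 CPM (log2 fold change 0.66, SE 0.19, adjusted p = 0.00721). CDH1 (log2 fold change -0.44, SE 0.12, adjusted p = 0.00639), ESRP1 (log2 fold change -0.40, SE 0.08, adjusted p = 0.000369) and ESRP2 (log2 fold change -0.38, SE 0.07, adjusted p = 0.000104) fell. Without replicate 1, CDH1 missed the threshold (adjusted p = 0.0577). ZEB2 was at 0.497, 0.488 and 0.126 CPM untreated and 1.04, 1.09 and 0.672 CPM with afatinib, where the background at the lowest shares gives 0.108 CPM or less. It passed with the block (log2 fold change 1.37, SE 0.25, adjusted p = 4.44e-05, against adjusted p = 0.0659 without it) and with library size alone (0.0477), without the filter (0.0365) or with only the 2 groups fitted (0.0291). SNAI1 passed with the block (log2 fold change -0.49, SE 0.16, adjusted p = 0.00974, against adjusted p = 0.228) and without replicate 1 (adjusted p = 0.00603), and with the block 63.7% of genes were called. In afatinib added to trastuzumab, the block called ZEB2 (log2 fold change 1.12, SE 0.24, adjusted p = 0.000327), SNAI1 (log2 fold change -0.45, SE 0.16, adjusted p = 0.0205) and ZEB1 (log2 fold change -0.40, SE 0.15, adjusted p = 0.0239), where it called 58.7% of genes.

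At 4 h in MKN7, where 22.2% of genes were called, afatinib lowered ESRP2 from 124, 117 and 113 CPM to 87.2, 82.7 and 78.2 CPM (log2 fold change -0.51, SE 0.07, adjusted p = 9.87e-06). ZEB1 fell from 4.75, 4.16 and 4.22 CPM to 3.12, 2.54 and 2.60 CPM (log2 fold change -0.67, SE 0.17, adjusted p = 0.00671). Neither gene overlapped between the groups. ESRP2 was the 1 gene called when afatinib was added to trastuzumab (log2 fold change -0.51, SE 0.07, adjusted p = 1.28e-05, 20.5% of genes called). ZEB1 was lost without replicate 2 (adjusted p = 0.0647) or 3 (0.0763). EPCAM and CDH1 did not pass at 4 h (adjusted p = 0.721 and 0.586). ESRP1 was at 139, 157 and 159.9 CPM and 155, 172 and 183 CPM with afatinib and passed with the block in the direction opposite to that at 24 h (log2 fold change 0.16, SE 0.04, adjusted p = 0.00173, against adjusted p = 0.161, with 38.4% of genes called) and with library size alone (adjusted p = 0.0396). In afatinib added to trastuzumab the block called ESRP1 (log2 fold change 0.17, SE 0.04, adjusted p = 0.000805), ZEB1 (log2 fold change -0.46, SE 0.13, adjusted p = 0.00811) and SNAI1 (log2 fold change -0.47, SE 0.14, adjusted p = 0.0104) at 4 h, where it called 38.1% of genes.

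**Figure D4:**
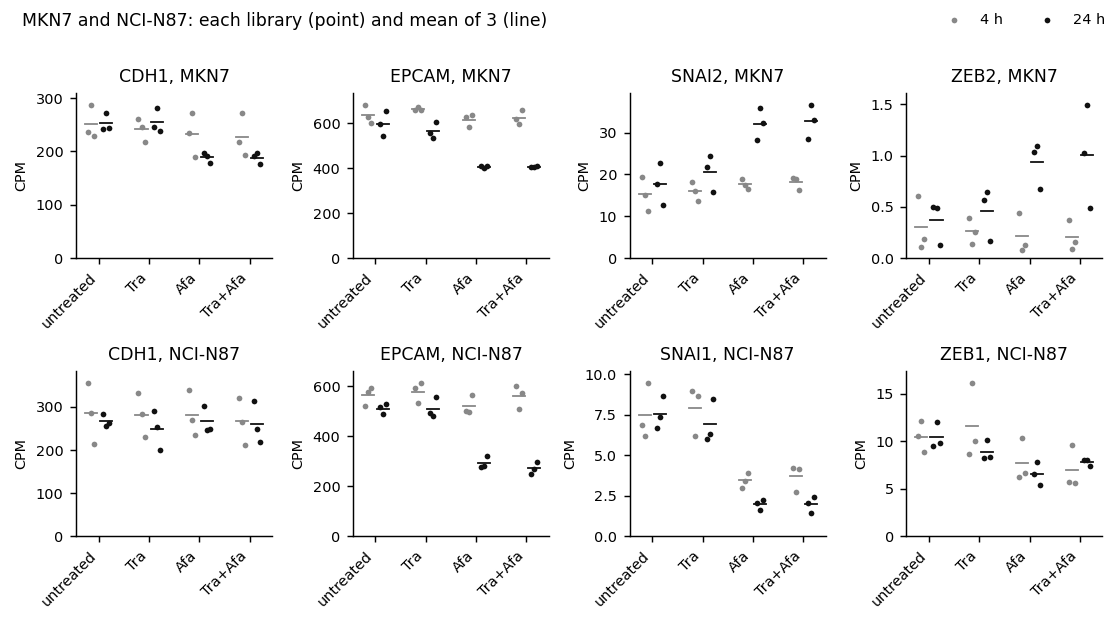
CDH1, EPCAM, SNAI2 and ZEB2 in MKN7 and CDH1, EPCAM, SNAI1 and ZEB1 in NCI-N87 by treatment and time (grey 4 h, black 24 h), in CPM, with 1 point per library and the mean of 3 as a line. EPCAM at 24 h lies between 399.7 and 411 CPM in the MKN7 libraries with afatinib and between 247 and 322 CPM in those of NCI-N87, below the libraries without afatinib.

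In NCI-N87, afatinib lowered SNAI1 and EPCAM. SNAI1 at 24 h was at 6.67, 7.34 and 8.64 CPM untreated and 2.07, 1.60 and 2.24 CPM with afatinib, 0.26 times the untreated level (log2 fold change -1.94, SE 0.23, adjusted p = 1.77e-07). At 4 h it was at 6.87, 6.17 and 9.44 CPM and 3, 3.44 and 3.88 CPM (log2 fold change -1.12, SE 0.22, adjusted p = 0.000761). No afatinib library overlapped an untreated one at either time. Added to trastuzumab, afatinib took SNAI1 from 6.01, 6.34 and 8.51 CPM to 2.06, 1.42 and 2.41 CPM at 24 h (log2 fold change -1.82, SE 0.23, adjusted p = 5.18e-07) and lowered it at 4 h as well (log2 fold change -1.11, SE 0.22, adjusted p = 0.000768). EPCAM at 24 h went from 515, 488 and 528 CPM to 277, 282 and 322 CPM (log2 fold change -0.80, SE 0.09, adjusted p = 2.26e-07). It went from 494, 479 and 556 CPM with trastuzumab to 247, 268 and 296 CPM with both (log2 fold change -0.91, SE 0.10, adjusted p = 3.78e-08). The calls on SNAI1 and on EPCAM at 24 h held without each replicate. These calls stand where 62.5% of genes were called against untreated and 61.8% against trastuzumab at 24 h, with 3 and 2 of the 10 genes called.

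CDH1 in NCI-N87 at 24 h was at 285, 255 and 264 CPM untreated and 302, 248 and 249 CPM with afatinib (log2 fold change -0.01, SE 0.19, adjusted p = 0.973, 95% interval -0.38 to 0.37), with overlapping groups. ZEB1 fell from 9.50, 12 and 9.76 CPM to 6.58, 7.77 and 5.33 CPM (log2 fold change -0.67, SE 0.23, adjusted p = 0.0170), a call that was lost without replicate 1 (adjusted p = 0.0711) or 3 (0.125) and with library size alone (0.187). With the block, ESRP1 (log2 fold change 0.14, SE 0.06, adjusted p = 0.0356, against adjusted p = 0.145) and VIM (log2 fold change -0.44, SE 0.18, adjusted p = 0.0288, against adjusted p = 0.520) passed too, where 72.1% of genes were called. ESRP1 passed with library size alone as well (adjusted p = 0.000464), and VIM passed with the block in afatinib added to trastuzumab (log2 fold change -0.66, SE 0.18, adjusted p = 0.00224, with 71.4% of genes called). VIM lies at the shared background in this line.

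At 4 h in NCI-N87, 18.2% of genes were called against untreated and 19.7% against trastuzumab. ESRP1 was at 402, 452 and 384 CPM and 477, 512 and 512 CPM with afatinib and rose (log2 fold change 0.28, SE 0.08, adjusted p = 0.0194). ESRP2 fell from 113, 95.1 and 91.6 CPM to 84.4, 71.6 and 70.1 CPM (log2 fold change -0.41, SE 0.13, adjusted p = 0.0286). The paralogs moved in opposite directions, also in the separate libraries with trastuzumab (ESRP1 log2 fold change 0.35, SE 0.08, adjusted p = 0.00378, ESRP2 log2 fold change -0.43, SE 0.13, adjusted p = 0.0199). The ESRP1 calls were lost without replicate 3 (adjusted p = 0.290 and 0.0855), and against untreated also without replicate 1 (0.0772) or 2 (0.0839) and without the filter (0.0748). The ESRP2 calls were lost without replicate 2 (adjusted p = 0.181 and 0.145) or 3 (0.109 and 0.101) and with library size alone (0.0772 and 0.0552). With only the 2 groups fitted, both ESRP1 calls were lost (0.0602 and 0.0539). ZEB1 fell when afatinib was added to trastuzumab (log2 fold change -0.73, SE 0.23, adjusted p = 0.0285), but not without replicate 1 (adjusted p = 0.115) or 3 (0.162), with library size alone (0.0785) or with only the 2 groups fitted (0.135). Against untreated, ZEB1 passed with the block (log2 fold change -0.46, SE 0.10, adjusted p = 0.00139, against adjusted p = 0.226, with 33% of genes called) and without replicate 2 (adjusted p = 0.0278).

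**Figure D5:**
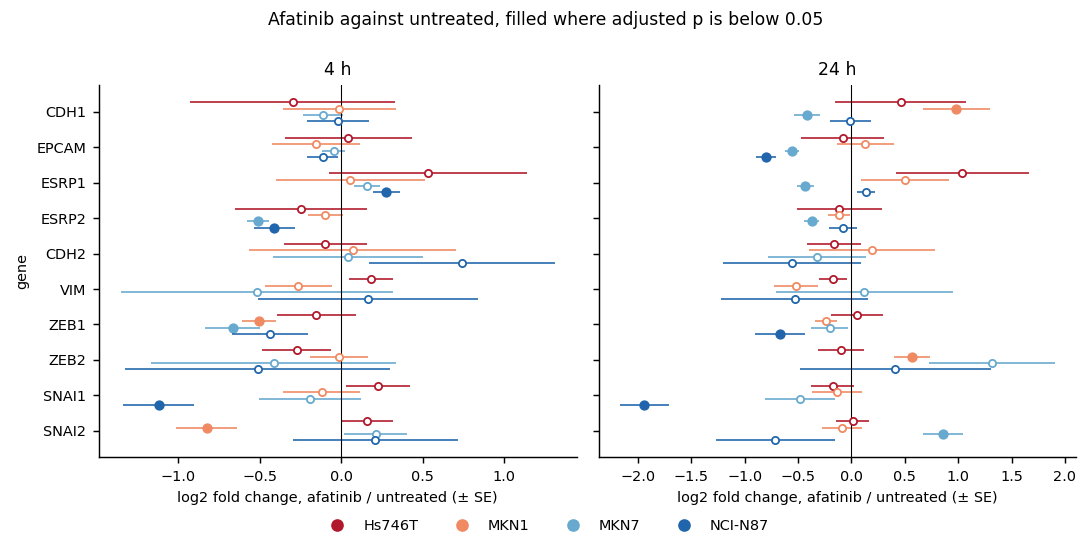
Log2 fold change of each gene with afatinib against untreated at 4 h (left) and 24 h (right), coloured by line, with the standard error as a bar and called genes filled. SNAI1 in NCI-N87 lies at -1.12 at 4 h and -1.94 at 24 h, EPCAM lies at -0.56 in MKN7 and -0.80 in NCI-N87 at 24 h, and no point of Hs746T is filled.

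In Hs746T, none of the 10 genes was called in any of the 12 treatment comparisons, and no gene of all 18667 tested was called by edgeR either (0.0% in each, 125 to 1371 genes at an unadjusted p below 0.05, and 0 to 2 genes called by DESeq2). At an unadjusted p below 0.05, edgeR gave 2 of the 10 genes for cetuximab added to EGF at 4 h and 0 of the 10 in the other 11 comparisons, and DESeq2 called 0 of the 10. VIM at 24 h was at 1959, 1494 and 1539.8 CPM untreated, 1533, 1339.5 and 1565 CPM with afatinib and 1993, 1465 and 1547 CPM with EGF, with 95% intervals of the log2 fold change of -0.43 to 0.09 and -0.26 to 0.27. For CDH1 these intervals were -0.74 to 1.66 and -1.27 to 1.17, for ESRP1 -0.17 to 2.25 and -1.31 to 1.22, and for SNAI2 -0.29 to 0.31 and -0.36 to 0.24. The interval of VIM with EGF does not reach the change seen in MKN1, whereas those of CDH1 and ESRP1 extend past 1 log2 unit on at least 1 side. Replicate 1 stood apart from the others whatever the treatment. Over its 14 libraries, replicate 1 held EPCAM at 16.7 to 28.9 CPM and ZEB1 at 65.9 to 81.9 CPM, against 32.5 to 40.5 CPM and 45 to 64.9 CPM in replicates 2 and 3. With the replicate number as a block, afatinib at 4 h changed SNAI2 (log2 fold change 0.17, SE 0.05, adjusted p = 0.0115) and ZEB2 (log2 fold change -0.28, SE 0.07, adjusted p = 0.00918), where 18.6% of genes were called.

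Trastuzumab alone gave no call on any of the 10 genes in the 8 comparisons of the 4 lines (0.0% of genes called by edgeR in each, 125 to 786 at an unadjusted p below 0.05, and 0 or 1 called by DESeq2), with 0 of the 10 genes at an unadjusted p below 0.05 in each and 0 of the 10 called by DESeq2 or with the block. VIM in MKN1 at 24 h was at 298, 317 and 327 CPM against 300.2, 315 and 318 CPM (95% interval of the log2 fold change -0.39 to 0.42). EPCAM in NCI-N87 at 24 h was at 494, 479 and 556 CPM against 515, 488 and 528 CPM (95% interval -0.19 to 0.18), and SNAI1 there at 6.01, 6.34 and 8.51 CPM against 6.67, 7.34 and 8.64 CPM (95% interval -0.53 to 0.30). Afatinib against untreated and afatinib added to trastuzumab each gave 17 calls among 80 gene comparisons, 4 higher and 13 lower (7 higher and 10 lower against untreated, and 6 and 11 against trastuzumab, with library size as the only scaling). The share of all genes called ran from 0.0 to 62.5% over the comparisons against untreated and from 0.0 to 61.8% over those against trastuzumab. These counts are to be read against such shares.

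Time in culture moved some of the genes in untreated cells. In MKN1, where 34.1% of genes were called between 24 h and 4 h, VIM (log2 fold change -1.03, SE 0.21, adjusted p = 0.000223), SNAI2 (log2 fold change -0.63, SE 0.19, adjusted p = 0.00882) and ZEB1 (log2 fold change -0.37, SE 0.10, adjusted p = 0.00564) were lower at 24 h. SNAI2 was lost without replicate 1 (adjusted p = 0.236), and ZEB1 without replicate 2 (0.0814) and with library size alone (0.132). With the block CDH1 (log2 fold change 0.78, SE 0.32, adjusted p = 0.0402) and ESRP1 (log2 fold change 0.99, SE 0.37, adjusted p = 0.0262) were higher at 24 h, where 47.2% of genes were called. Both also passed without replicate 2 (adjusted p = 0.0106 and 0.0143) and with library size alone (0.0302 and 0.0492). In MKN7, where 16.4% of genes were called, ESRP1 was higher (log2 fold change 0.35, SE 0.08, adjusted p = 0.00539) and ZEB1 lower (log2 fold change -0.85, SE 0.17, adjusted p = 0.00234) at 24 h. Without replicate 1 both missed the threshold (adjusted p = 0.0513 and 0.0684), ESRP1 also without replicate 2 (0.0926) and with only the 2 groups fitted (0.0502). None of the 10 genes was called by edgeR or DESeq2 in NCI-N87 (0.267% of genes called, 0 of the 10 at an unadjusted p below 0.05) or in Hs746T (1.48%, 1 of the 10 at an unadjusted p below 0.05), where the block called CDH2 (log2 fold change -0.25, SE 0.06, adjusted p = 0.00789) and SNAI2 (log2 fold change 0.35, SE 0.07, adjusted p = 0.00100) among 10.2% of genes. Both also passed without replicate 1 (adjusted p = 0.0325 and 0.0223).

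Whether an effect differed between lines was tested as an interaction. For afatinib at 24 h, 8 of 60 gene comparisons passed. SNAI1 fell more in NCI-N87 than in Hs746T (difference of log2 fold changes, Hs746T minus NCI-N87, 1.75, SE 0.35, adjusted p = 2.29e-05), MKN1 (1.79, SE 0.34, adjusted p = 1.63e-05) and MKN7 (1.43, SE 0.35, adjusted p = 0.00115). SNAI2 rose more in MKN7 than in Hs746T (Hs746T minus MKN7 -0.84, adjusted p = 0.0244), MKN1 (MKN1 minus MKN7 -0.94, adjusted p = 0.0311) and NCI-N87 (MKN7 minus NCI-N87 1.56, adjusted p = 0.0114), where the last rests on a gene at background in NCI-N87. CDH1 differed between MKN1 and MKN7 (1.41, adjusted p = 0.0433), and ZEB2 between Hs746T and MKN7 (-1.41, adjusted p = 0.0338). Calls covered 4.41% of genes for Hs746T minus MKN1, where none of the 10 genes passed (0 also at an unadjusted p below 0.05 and with DESeq2). They covered 18.8% for Hs746T minus MKN7, 35.1% for Hs746T minus NCI-N87, 7.6% for MKN1 minus MKN7, 28.0% for MKN1 minus NCI-N87 and 21.4% for MKN7 minus NCI-N87. The 3 differences of SNAI1 held without each replicate, with DESeq2, with library size alone, without the filter and with the block. Without replicate 2 or 3, SNAI2 in MKN7 no longer differed from Hs746T (adjusted p = 0.104 and 0.266) or MKN1 (0.124 and 0.395), nor ZEB2 (0.164 and 0.273) nor CDH1 (0.240 and 0.434). CDH1 was lost with DESeq2 (0.0796), library size alone (0.0570) and no filter (0.0535) too, and SNAI2 against NCI-N87 without replicate 1 (0.357).

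With the block, 24 of the 60 passed. The EPCAM decrease in NCI-N87 then differed from Hs746T (difference 0.71, adjusted p = 6.70e-08, 48.6% of genes called) and MKN1 (0.92, adjusted p = 5.50e-11, 44.5% of genes), and that in MKN7 from Hs746T (0.49, adjusted p = 0.000222, 36.1% of genes) and MKN1 (0.69, adjusted p = 6.78e-07, 25.6% of genes). ZEB2 differed between Hs746T and MKN1 (-0.66, adjusted p = 0.000621, 21.5% of genes), and ZEB1 between MKN7 and NCI-N87 (0.44, adjusted p = 0.0244, 38.3% of genes). ZEB1 also differed between NCI-N87 and Hs746T (Hs746T minus NCI-N87 0.68, adjusted p = 1.26e-06) and MKN1 (MKN1 minus NCI-N87 0.41, adjusted p = 0.00378). ESRP1 in MKN7 differed from Hs746T (Hs746T minus MKN7 1.51, adjusted p = 0.0222), MKN1 (MKN1 minus MKN7 0.92, adjusted p = 0.00994) and NCI-N87 (MKN7 minus NCI-N87 -0.59, adjusted p = 0.0204), the last in ESRP2 as well (-0.33, adjusted p = 0.0377). ESRP1 of Hs746T lay at the shared background, at 0.395, 0.267 and 0.479 CPM untreated and 1.43, 0.434 and 0.530 CPM with afatinib. VIM in MKN7 differed from MKN1 (MKN1 minus MKN7 -0.71, adjusted p = 0.00320) and NCI-N87 (MKN7 minus NCI-N87 0.62, adjusted p = 0.0253), where VIM of MKN7 and NCI-N87 lay at the shared background. ZEB2 differed between MKN1 and MKN7 (-0.77, adjusted p = 0.0218) and CDH1 between MKN1 and NCI-N87 (0.98, adjusted p = 0.000478).

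Without replicate 1, and with no block, the 4 differences of EPCAM passed too (adjusted p from 6.40e-06 to 0.0216), as did CDH1 for MKN1 minus NCI-N87 (adjusted p = 0.00460), ZEB1 for Hs746T minus NCI-N87 (0.0133) and ESRP2 for MKN7 minus NCI-N87 (0.0336). For EGF at 24 h, MKN1 minus Hs746T, none of the 10 genes passed without the block (7.92% of genes called, 3 of the 10 at an unadjusted p below 0.05, 0 with DESeq2), and VIM, with a difference of 1.69, had an adjusted p of 0.126 there and 0.00338 without replicate 1. With the block 5 passed, VIM (log2 fold change 1.67, SE 0.16, adjusted p = 1.60e-14), SNAI2 (log2 fold change 0.64, SE 0.14, adjusted p = 0.000224), ZEB1 (log2 fold change 0.47, SE 0.11, adjusted p = 0.000527), SNAI1 (log2 fold change 0.57, SE 0.22, adjusted p = 0.0410) and CDH1 (log2 fold change -1.37, SE 0.47, adjusted p = 0.0225), where 25.5% of genes were called.

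4 wider lists of the pathway, with genes called by the same rule, gave a mixed picture. Their counts are to be read against the share of all genes called at 24 h, which was 35.8% for EGF in MKN1 and, for afatinib, 25.6% in MKN1, 51.6% in MKN7 and 62.5% in NCI-N87. Of 24 other epithelial genes, 23 were tested in MKN1, and EGF at 24 h lowered 8 and raised 1, with a median log2 fold change of -0.68 against -0.05 over all genes. CLDN7, a claudin of the lateral membrane, fell by 2.53 on the log2 scale, LLGL2, a polarity protein, by 1.34 and CDH3, P-cadherin, by 1.10, while KRT18 rose by 0.42. Afatinib raised 6 of the 23 and lowered 1 in MKN1 (median 0.23 against 0.01 over all genes), with CDH3 (1.20) and CLDN7 (1.12) higher and KRT18 (-0.43) lower. In MKN7 and NCI-N87 the list moved both ways with afatinib, with 8 higher and 6 lower of 24 (median 0.08 against 0.04 over all genes) and 10 higher and 7 lower of 24 (median 0.02 against 0.03). In both lines ELF3, an epithelial transcription factor (1.45 and 1.60), and PRSS8, a membrane-bound protease (1.08 and 1.64), rose, whereas the keratins KRT18 (-0.73 and -1.87) and KRT8 (-0.64 and -1.37) fell. With 9 of 23 genes called for EGF, and 7 of 23, 14 of 24 and 17 of 24 for afatinib in MKN1, MKN7 and NCI-N87, the numbers called were near those shares.

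Of 24 other mesenchymal genes, 22 were tested in MKN1, and EGF at 24 h raised 5 and lowered 2 (median 0.14 against -0.05 over all genes), with CDH11, a cadherin of mesenchyme (2.65), higher and COL3A1 (-2.21) lower. Afatinib raised 2 and lowered 2 of them in MKN1 (median 0.13 against 0.01), 3 and 6 of 20 in MKN7 (median 0.19 against 0.04) and 3 and 6 of 22 in NCI-N87 (median -0.36 against 0.03). CD44, a hyaluronan receptor, fell in MKN7 (-1.90), FN1, fibronectin, fell in NCI-N87 (-1.35), and TAGLN, an actin-binding protein, rose in both (0.82 and 0.93). The numbers called, 7 of 22 for EGF and 4 of 22, 9 of 20 and 9 of 22 for afatinib in the same order, lay at or below the shares over all genes. Of 8 partners of cadherins, EGF in MKN1 raised 3 and lowered 2 (median 0.07 against -0.05), and afatinib raised 2 and lowered 3 in MKN1 (median -0.11 against 0.01), 2 and 3 in MKN7 (-0.17 against 0.04) and 1 and 3 in NCI-N87 (-0.08 against 0.03). JUP, plakoglobin, which the epithelial list holds as well, rose with afatinib in MKN1 (0.65), MKN7 (0.55) and NCI-N87 (0.61) and fell with EGF in MKN1 (-0.55). Of 11 tested genes of TGF-beta signalling, afatinib lowered 9 and raised 0 in NCI-N87 (median -0.66 against 0.03 over all genes), TGFB1 (-1.99), SMAD3 (-1.23) and TGFB2 (-0.95) most, where 62.5% of all genes were called, against 2 higher and 3 lower in MKN7 (median -0.12), where TGFB2 rose (0.82), 0 and 1 in MKN1 (median -0.15) and 1 and 1 with EGF in MKN1 (median 0.04 against -0.05). In Hs746T at 24 h, no gene of the 4 lists was called with afatinib, EGF or cetuximab. These values are log2 fold changes at 24 h.

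Between untreated Hs746T and NCI-N87, all 24 epithelial genes were lower in Hs746T (median -6.85 against -0.01 over all genes), and of 22 mesenchymal genes 17 were higher and 4 lower (median 4.29), where 79.6% of all genes were called. JUP had medians of 2.28 CPM in Hs746T and 2098 CPM in NCI-N87, COL1A2 of 180 and 0.254 CPM, and TWIST2, a repressor of the TWIST pair, of 39.8 and 0.0915 CPM, while TWIST1 went the other way with 0.0788 and 2.55 CPM. COL1A2 is among the genes used for the shared background and appeared in NCI-N87 at a median of 0.176% of its Hs746T level. The lower values of JUP, TWIST2 and TWIST1 were not set against that background, which can limit the size of each of these differences. Of the 8 cadherin partners 2 were higher and 5 lower in Hs746T (median -0.54), and of 11 TGF-beta genes 4 were higher and 5 lower (median 0.01), with SMAD4, the shared SMAD of the pathway, at 54.4 CPM in Hs746T and 1.78 CPM in NCI-N87.

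Over the means of the 44 conditions, MARVELD3 (Pearson r = 0.995) and ESRP1 (0.993) were among the 3 genes whose log2 CPM ran most like that of CDH1 among 12062 genes. For VIM the 3 were HS3ST3A1 (0.998), ADRA1B (0.997) and DSEL (0.995), and for SNAI2 FLNC (0.988), LINC01515 (0.985) and EVA1A (0.984). The conditions come from 4 lines, so these values mostly describe levels that the lines share.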

How the data were processed

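RNA was measured in 44 groups of 3 libraries from 4 established gastric cancer cell lines, prepared by the authors from 500 ng of total RNA by polyadenylated RNA selection with a kit that marks strand. The submitters' processing notes name Trim Galore, STAR and hg38, and their versions, the counting tool, the annotation and the strand setting are not given in the sources used here. The deposited values are raw read counts per gene, 1 file per library, for 65217 Ensembl identifiers. Symbols and positions came from GENCODE 29, which lacks 8404 of the identifiers (0.0422% of counts), and promoter sequences from RefSeq (GRCh38.p14). Total counts were 25832557 to 69434151, a precision that covers counting error only, and no 2 libraries were identical.

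Samples were grouped by line, treatment and time from the labels, and the replicates are described as biological triplicates, with nothing more on what separates them, so p-values measure the spread between these samples. Counts were tested with edgeR 4.0.16 (R 4.3.3) by the quasi-likelihood F-test after TMM scaling and filterByExpr (minimum count 10, minimum total count 15), with 1 fit per line for treatments and time, 1 fit of the 24 untreated libraries for lines and 1 fit of all libraries for differences between lines. Genes tested numbered 19815 in MKN1, 18667 in Hs746T, 18483 in MKN7, 19078 in NCI-N87, 20560 in the untreated and 22832 in all libraries. A gene was called at a Benjamini-Hochberg adjusted p below 0.05 over all genes tested. Where groups are said not to overlap, the share of all genes that separate in this way is not given, so the statement describes the values only. The study's own limit of a log2 fold change of 1 was kept as an alternative, beside DESeq2 1.42.0, library size as the only scaling, no filter, the replicate number as a block, leaving out each replicate, fitting only the compared groups and the 24 h libraries alone. Levels are counts per 1000000 counts of the TMM-scaled library size. Statistics were checked on simulated counts. Figures were drawn with matplotlib 3.10.9.

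The numbers pair the libraries. Deviations of same-numbered libraries from their group means correlated above 0.1 in every pair in 38 of 40 comparisons within a line, and the exceptions were afatinib added to trastuzumab and cetuximab against untreated in MKN1 at 24 h. Blocked values are therefore given beside a result where they changed a call.

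The 10 genes and the lists were chosen with earlier results of these data known. All 10 are named, and of each list at most 3 genes higher and 3 lower by absolute log2 fold change among those called with a mean above 1 CPM. For likeness, the 3 genes with the highest Pearson correlation of mean log2 CPM (prior count 2) over the 44 conditions are named. 2 genes that these rules name are not reported here. Genes at 100 CPM or more in 1 line and under 1 CPM in the other 3, used for the signal shared between lines, were chosen after the data were seen.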

Additional observations from a re-analysis of the deposited data

Results flagged for a closer look

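The effect of afatinib at 24 h differed between lines by a test of the difference itself for 8 gene comparisons (edgeR, all libraries, adjusted p below 0.05). SNAI1 gave differences of log2 fold changes of 1.75 for Hs746T minus NCI-N87, 1.79 for MKN1 minus NCI-N87 and 1.43 for MKN7 minus NCI-N87. SNAI2 gave -0.84 for Hs746T minus MKN7, -0.94 for MKN1 minus MKN7 and 1.56 for MKN7 minus NCI-N87. CDH1 gave 1.41 for MKN1 minus MKN7, where it was 0.98 in MKN1 and -0.42 in MKN7, and was lost with DESeq2, with library size alone, without the filter and without replicate 2 or 3. ZEB2 gave -1.41 for Hs746T minus MKN7. This ZEB2 difference and those of SNAI2 between MKN7 and Hs746T or MKN1 were lost without replicate 2 or 3. The SNAI2 difference between MKN7 and NCI-N87 was lost without replicate 1 and rests on a gene at the shared background in NCI-N87. With 3 samples in each group, single samples that stand apart within a group were not tested.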

How the results depend on the processing

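No call on the 10 genes changed its direction under any alternative. Requiring a log2 fold change of 1 left 2 of the 17 calls for afatinib against untreated, 2 of 17 for afatinib added to trastuzumab, 4 of 8 for EGF, 1 of 3 for cetuximab and 1 of 5 for time. Leaving out 1 replicate gave 9 to 15 calls for afatinib against untreated, 11 to 15 for afatinib added to trastuzumab, 4 to 7 for EGF, 0 to 1 for cetuximab, 0 to 1 for cetuximab added to EGF, 4 to 5 for time, 50 to 56 between untreated lines (of 53), 4 to 14 for differences of afatinib between lines (of 8) and 0 to 1 for those of EGF (of 0). Replicate 3 gave the lowest counts for afatinib (9 and 11 without it) and replicate 1 for EGF (4 without it). DESeq2 called 1 gene for cetuximab added to EGF, where edgeR called 0. It gave no adjusted p for 14 results, of which 5 were called by edgeR, all VIM between lines. Of 111 called results, the number that missed the threshold was 2 with DESeq2, 9 with library size alone, 3 without the filter, 18, 20 and 24 without replicates 1, 2 and 3, 9 of 50 with only the compared groups fitted, 2 of 53 with the 24 h libraries alone and 48 with the fold limit.

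With the replicate block, calls went from 17 to 28 for afatinib against untreated, from 17 to 25 for afatinib added to trastuzumab, from 8 to 10 for EGF, from 3 to 4 for cetuximab, from 0 to 6 for cetuximab added to EGF, from 5 to 9 for time, from 8 to 24 for differences of afatinib between lines and from 0 to 5 for those of EGF. No call was lost with the block and trastuzumab stayed at 0. Between lines it gave 56 calls, where pairing of the numbers across lines was not tested. In MKN1 at 24 h, where 2 comparisons had pairs at 0.1 or below, the block added ESRP1 for afatinib added to trastuzumab (log2 fold change 0.78, SE 0.30, adjusted p = 0.0343), with 45.4% of genes called, and nothing for cetuximab.

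Scaling by library size alone moved the median log2 fold change of all genes by over 0.1 in several comparisons, to 0.32 for afatinib added to trastuzumab and 0.29 for afatinib in NCI-N87 at 24 h, to -0.24 for EGF in MKN1 at 24 h and to 0.21 for time in MKN1. The higher and lower calls were then 7 and 10 for afatinib (4 and 13 with TMM), 4 and 4 for EGF (5 and 3) and 3 and 3 for time (1 and 4). The cause of the differences between settings was not tested. Leaving out the Hs746T library with MKN7 genes, an alternative added after seeing the data, left the calls for cetuximab added to EGF at 0. At these depths, 3 counts are 0.0432 to 0.116 CPM. At the lowest shares, the signal shared between lines limits VIM in MKN7 and NCI-N87, SNAI2 and CDH2 in NCI-N87 and ESRP1 in Hs746T. At higher shares it may also limit others, such as CDH1 in Hs746T and ESRP1 in MKN1.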

Other observations

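The 4 lists also moved in comparisons that the report does not describe. Cetuximab in MKN1 at 24 h raised 4 of 23 epithelial genes and lowered 0 (median log2 fold change 0.15 against 0.01 over all genes, 10.8% of which were called), and it raised 1 and lowered 1 of 22 mesenchymal genes. Between untreated MKN1 and NCI-N87, 20 of 24 epithelial genes were lower in MKN1 and 0 higher (median -3.33, with 78.7% of all genes called), and 13 of 22 mesenchymal genes were higher and 3 lower (median 2.30). Of 11 genes of TGF-beta signalling, 8 were higher and 2 lower in MKN1 (median 0.40). MKN7 and NCI-N87 did not differ in CDH1 beyond their spread, nor in VIM, which lay near the shared background in both. Between these lines, 6 epithelial genes were higher and 11 lower in MKN7 (median -0.22, 17 of 24 called against 76.8% of all genes), and 10 mesenchymal genes were higher and 3 lower (median 0.68).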
